A study of Mus musculus with 15 samples.

Results

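The mitochondrial genome of the mouse was followed here through its 37 annotated genes, chosen as every feature placed on the mitochondrial chromosome: 13 mRNA genes, 2 rRNA genes and 22 tRNA genes. They are 37 of 50051 features counted in total RNA and 37 of 49585 counted in small RNA. Testes came from B6D2F1 mice at postnatal day 28 in 3 genotypes, labelled Chr18+/+ (wild type), Chr18+/- (heterozygous) and Chr18-/- (homozygous knockout), and the series concerns the loss of pachytene piRNAs of a chromosome 18 locus. Strand-specific total RNA after ribosomal depletion was sequenced from 3 libraries of each genotype. Small RNA was sequenced from 3 heterozygous and 3 homozygous libraries after periodate oxidation and β-elimination, which favours RNAs with a 2′-O-methylated 3′ end such as piRNAs. No label ties a library to its own animal, and the tests therefore compare groups only against the scatter among libraries, which may be technical. The design of the deletion is not described in the sources used here.

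Mammalian mitochondrial DNA is a small circle that is transcribed over long stretches of both strands, and its tRNA genes sit between the other genes. Nucleases cut the tRNAs out of the long transcripts, which also releases the mRNAs and rRNAs on either side of them. The mRNAs encode subunits of respiratory complexes I, III and IV and of the ATP synthase, and the rRNAs belong to the mitochondrial ribosome. Germ cells change their mitochondria as they mature, and the piRNA machinery of these cells includes proteins of the outer mitochondrial membrane.

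On this chromosome 28 genes lie on the plus strand and 9 on the minus strand, which are mt-Nd6 and 8 tRNA genes. Coordinates are those of the files and match the mm10 build. Neighbours often touch or overlap, which decides which fragments can be counted, since a fragment that falls in more than 1 feature of a strand was left out. The 2 overlaps shown here set limits on mRNA counts, and the capitals mark the shared bases, printed as plus-strand letters from GENCODE transcripts.

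mt-Atp8 and mt-Atp6 (chrM:7915-7981, plus strand): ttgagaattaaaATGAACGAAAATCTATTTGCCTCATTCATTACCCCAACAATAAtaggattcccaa
mt-Nd5 and mt-Nd6 (chrM:13540-13577, genes on opposite strands): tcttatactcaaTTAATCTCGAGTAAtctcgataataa

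The first overlap holds 43 bases on the same strand, from the start codon of mt-Atp6 to the stop codon of mt-Atp8, which itself is only 204 bases long. The second holds 14 bases in which the ends of mt-Nd5 and mt-Nd6 meet head on, so strand is what tells their RNA apart. A further limit comes from nuclear copies of mitochondrial DNA. A stretch of chromosome 1 (mm10, 24611535 to 24616197) carries annotated copies of mt-Co1 through mt-Nd4. The copies Gm28661 of mt-Co2, Gm10925 of mt-Atp6 and Gm28437 of mt-Co3 have no difference from the mitochondrial gene over 681, 678 and 783 bases. Gm28438 differs from mt-Nd3 at 1 of 345 bases (T3C, counted from 1 at the first base of mt-Nd3, mitochondrial base first). Windows of 50 bases, the length of 1 read, are shared with other annotated transcripts for 100% of mt-Co2, 99.9% of mt-Co3, 99.5% of mt-Atp6, 98.8% of mt-Nd4l, 98.0% of mt-Nd3, 62.2% of mt-Nd4 and 51.1% of mt-Co1. The share is 8.19% for mt-Nd2, 7.61% for mt-Nd5, 1.04% for mt-Rnr2 and 0 for all the others. Only annotated transcripts were searched, so a 0 does not exclude a nuclear copy without annotation. mt-Ts1, mt-Td, mt-Tk, mt-Atp8, mt-Tg and mt-Tr lie between genes with copies on the chromosome 1 stretch. Whether that stretch also holds copies of them was not tested.

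Libraries held 21684791 to 41513634 sense-strand counts, 2316563 to 4037905 counts of the opposite strand and 939641 to 1861402 small RNA counts. A piRNA precursor of the chromosome 18 locus held 5609 to 9595 raw counts in wild type and 3983 to 8948 among heterozygotes. In homozygotes it held 3 to 6, so these libraries matched their label. The raw counts are not scaled for depth, and the heterozygous library with 8948 was the deepest of all. Relative to its sense-strand total, every heterozygous library lay below every wild-type one. Wild-type library 1 stood apart from the other wild-type libraries (chi-square per degree of freedom 47.6 and 50.7, against 3.12 between the other two), and heterozygous library 1 from its group (39.2 and 42.6, against 17.9). In small RNA, heterozygous libraries 2 and 3 lay close to each other (2.11) and far from heterozygous library 1 (25.7 and 27.2). Summed elongating spermatid markers (12 genes) stood at 15272 to 15910 CPM (counts scaled to a common library size by TMM) in wild type, 5001 to 12703 among heterozygotes and 8386 to 11324 in homozygotes. Early meiotic markers (9 genes) stood at 1430 to 1535, 1880 to 2407 and 2076 to 2360 CPM, and Leydig cell markers (8 genes, 1 at 0) at 1092 to 1216, 522 to 670 and 477 to 656 CPM. The 6 nuclear and cytoplasmic structural RNAs with counts (Rn7sk, Rmrp, Rpph1, Rn7s1, Rn7s2 and the rDNA-derived Gm26917) summed to 34486 to 71662, 16791 to 33648 and 18414 to 24608 CPM. These differences between wild type and the other genotypes run alongside every comparison with wild type below, and their part in the results was not tested. In whole testis, fewer cells of a type and less RNA per cell cannot be told apart.

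Mitochondrial RNA made up a large part of the sense-strand libraries. It took 16.9, 12.2 and 11.6% of counts in wild type, 16.2, 14.4 and 15.8% among heterozygotes and 16.4, 19.0 and 16.2% in homozygotes. Wild-type library 1 lay within the range of the other genotypes, while wild-type libraries 2 and 3 lay below all of them. The means were 13.6 ± 2.90%, 15.5 ± 0.98% and 17.2 ± 1.54% (SD, n = 3 each). Homozygous libraries all lay above the heterozygous ones, but an exact two-sided permutation test of 3 against 3 cannot go below p = 0.1, which it gave (0.214 after adjustment over 15 such tests, which were chosen after the values were seen). Against wild type the groups overlapped (exact permutation p = 0.3 for homozygotes and 0.4 for heterozygotes).

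The 2 rRNAs carried nearly all of that share, at 11.1 to 18.1% of all sense-strand counts over the 9 libraries, although the kit depletes ribosomal RNA. The 13 mRNAs took 0.520 to 0.841%. Whether its probes cover the mitochondrial rRNAs is not given in the sources used here, so these levels also depend on the depletion. mt-Rnr2, the large subunit (16S) rRNA (chrM:1094-2675), stood at 160907, 99870 and 95379 CPM in wild type, 130695, 115901 and 133081 among heterozygotes, and 137521, 166852 and 137464 in homozygotes. mt-Rnr1, the small subunit (12S) rRNA (chrM:70-1024), stood at 22587, 15232 and 13646, then 16082, 15098 and 16413, then 17089, 18262 and 16162 CPM. Neither passed in any of the 3 comparisons. For mt-Rnr2 the log2 fold change of homozygotes against wild type was 0.31 (95% interval -0.13 to 0.75, edgeR adjusted p = 0.29, by Benjamini-Hochberg over all features), and for mt-Rnr1 it was 0.00 (-0.37 to 0.37, adjusted p = 0.997). Without wild-type library 1, mt-Rnr2 passed (0.59, adjusted p = 0.0156).

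The balance between the rRNAs, examined after the values were seen, differed between the wild-type libraries and the others. The ratio of mt-Rnr2 to mt-Rnr1 counts was 7.12, 6.56 and 6.99 in wild type, 8.13, 7.68 and 8.11 among heterozygotes, and 8.05, 9.14 and 8.51 in homozygotes. All 3 wild-type libraries lay below the other 6, at 6.89 ± 0.30 against 7.97 ± 0.25 and 8.56 ± 0.55 (SD, n = 3). An exact permutation test against wild type gave p = 0.1 for each genotype, the smallest it allows, and heterozygotes and homozygotes overlapped (p = 0.3). Depth and scaling cancel in this ratio, while the depletion of each rRNA does not.

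**Figure D1:**
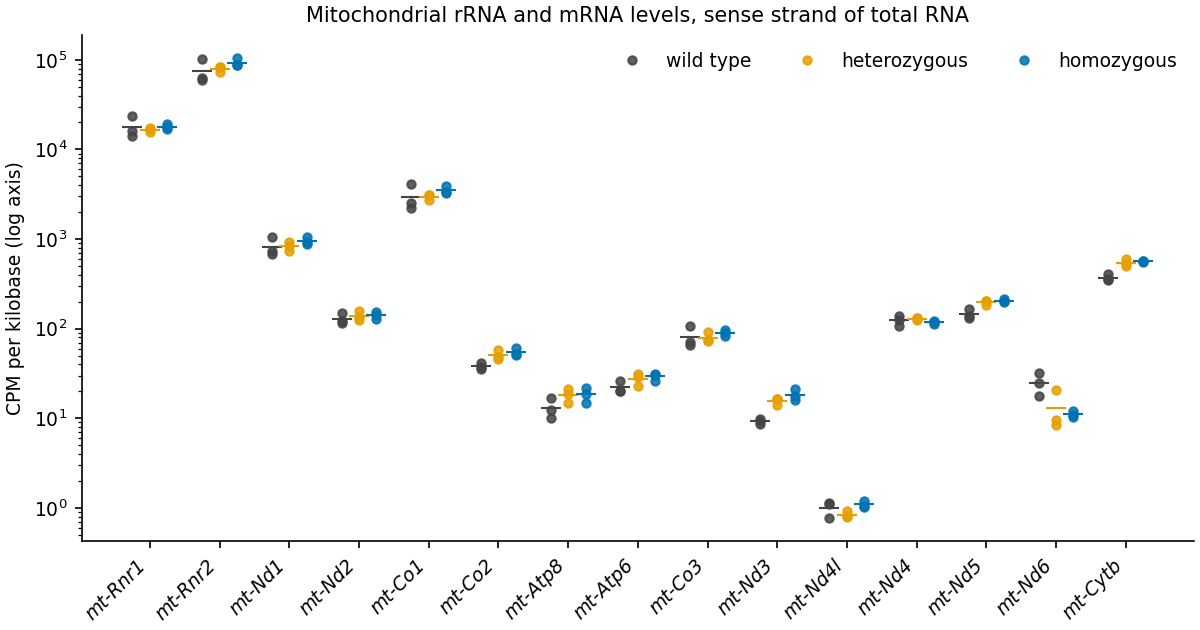
CPM per kilobase of gene (log axis) of each mitochondrial rRNA and mRNA on the sense strand, 1 point per library and a bar at the mean of 3 libraries, coloured by genotype. mt-Rnr2 leads in every group, mt-Co1 is the highest mRNA, and the wild-type points of mt-Nd5, mt-Nd3, mt-Co2 and mt-Cytb lie below those of the other genotypes.

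Among mRNAs, levels per kilobase spanned more than 3 orders of magnitude. In wild type mt-Co1 led at 2948 CPM per kilobase, ahead of mt-Nd1 (824), mt-Cytb (372), mt-Nd5 (146), mt-Nd2 (128) and mt-Nd4 (124). The last 3 overlapped between libraries. mt-Nd6, the only mRNA of the minus strand, stood at 24.9 CPM per kilobase. The genes with near-complete nuclear copies were low, from 81.4 for mt-Co3 through mt-Co2 (38.4), mt-Atp6 (22.3) and mt-Nd3 (9.30) to mt-Nd4l (1.01). mt-Atp8, which is short and overlaps mt-Atp6, stood at 13.0. It lies between mt-Co2 and mt-Atp6, which both have copies on chromosome 1, and an unannotated copy of it there was not looked for. Levels of the genes with copies are therefore not comparable with those of the others, since fragments that map to more than 1 place were not counted by default.

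Homozygotes were first compared with heterozygotes, the comparison in which every library carries the mutation on at least 1 chromosome. No mitochondrial gene passed. Of 18 members tested (12 mRNAs, 2 rRNAs and 4 tRNAs), 0 passed in edgeR and 0 in DESeq2, with 0 at an unadjusted p under 0.05. Over all 20782 features 6 passed, or 0.0289%. The members had a median log2 fold change of 0.07, against 0.01 over all features, with 14 of 18 above 0. By standard error, the smallest were those of mt-Nd4 at -0.13 (-0.34 to 0.09), mt-Cytb at 0.06 (-0.16 to 0.28), mt-Nd5 at 0.06 (-0.16 to 0.28) and mt-Co2 at 0.12 (-0.12 to 0.35). mt-Rnr2, with by far the most counts, had a wider interval, at 0.22 (-0.22 to 0.66), and so had mt-Nd6, at -0.24 (-0.91 to 0.43).

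Against wild type, both other genotypes differed in a few mitochondrial mRNAs. In homozygotes 4 members were higher and 1 lower of 18 tested, and in heterozygotes also 4 and 1. The comparisons share their wild-type libraries, so the values are given side by side and not as repeats of each other. Over all features, 20.8% passed in homozygotes against wild type (9.68% higher and 11.1% lower) and 23.9% in heterozygotes (11.1% higher and 12.9% lower). The share of members that passed, 5 of 18, is near those backgrounds. The counts over all features moved with single libraries. In homozygotes 4319 features passed, against 2760 or 2812 when wild-type library 2 or 3 was left out and 1899 or 1805 when homozygous library 2 or 3 was. In heterozygotes 4977 passed, against 2901 without wild-type library 1 and 2432 without heterozygous library 3. The members that passed were 4 to 9 in homozygotes and 3 to 4 in heterozygotes with 1 library left out. The median log2 fold change of the 18 members was 0.26 in homozygotes and 0.22 in heterozygotes, against -0.01 and 0.00 over all features.

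mt-Cytb encodes cytochrome b, the only mitochondrially encoded subunit of complex III. It stood at 468, 412 and 397 CPM in wild type, 693, 579 and 599 among heterozygotes, and 640, 653 and 659 in homozygotes. All wild-type libraries lay below the other 6. The log2 fold change was 0.61 in homozygotes (SE 0.10, edgeR adjusted p = 0.00282) and 0.55 in heterozygotes (SE 0.10, adjusted p = 0.00474). None of the 50-base windows of mt-Cytb is shared with another annotated transcript.

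Complex I has 7 subunits encoded on this chromosome, and mt-Nd5 was higher outside wild type. Its libraries stood at 304, 251 and 242 CPM in wild type, 371, 339 and 374 among heterozygotes, and 366, 390 and 372 in homozygotes, again without overlap. It rose by a log2 fold change of 0.50 in homozygotes (SE 0.10, adjusted p = 0.00729) and 0.44 in heterozygotes (SE 0.10, adjusted p = 0.0109). The calls of mt-Cytb and mt-Nd5 held in each of 19 alternative settings in both comparisons.

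The other plus-strand complex I genes did not share this pattern on the sense strand, with the exception of mt-Nd3. mt-Nd1 stood at 1004, 710 and 651 CPM in wild type, 805, 706 and 886 among heterozygotes and 838, 1007 and 893 in homozygotes (log2 fold change against wild type 0.21 and 0.02 in homozygotes and heterozygotes). mt-Nd2 stood at 154, 127 and 119, then 141, 130 and 163, then 133, 158 and 149 CPM (0.14 and 0.12). In both genes the groups overlapped. mt-Nd4 stood at 193, 171 and 149 CPM in wild type, 181, 173 and 180 among heterozygotes and 157, 165 and 166 in homozygotes (-0.07, 95% interval -0.29 to 0.14, and 0.05, -0.16 to 0.27). mt-Nd1 passed only without wild-type library 1 (homozygotes 0.43, adjusted p = 0.0363). mt-Nd4l held 5 to 12 counts per library, 78 in all, and was not tested.

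mt-Nd3 and mt-Co2 rose in the counts as deposited, but these calls did not hold once their nuclear copies were added. mt-Nd3, a small complex I subunit, stood at 3.45, 2.99 and 3.27 CPM in wild type, 5.74, 4.88 and 5.70 among heterozygotes and 6.12, 7.34 and 5.58 in homozygotes (log2 fold change 0.97, adjusted p = 0.00234, in homozygotes and 0.75, 0.0073, in heterozygotes). mt-Co2, subunit 2 of cytochrome c oxidase, stood at 28.6, 24.4 and 25.8, then 39.2, 31.4 and 33.0, then 35.03, 41.3 and 36.1 CPM (0.51, adjusted p = 0.00922, and 0.40, 0.024). Wild type lay below both groups for each gene. Of the counts of mt-Nd3 and Gm28438 together, the copy took 74.4, 67.2 and 54.4% in wild type, 60.6, 56.3 and 55.1% among heterozygotes and 54.5, 53.7 and 52.2% in homozygotes. For mt-Co2, the copies Gm28661 and Gm13341 took 65.3, 61.3 and 55.6%, then 54.9, 52.4 and 52.4%, then 55.1, 51.1 and 51.9%. The share was thus highest in wild-type libraries 1 and 2. With the copies added, mt-Nd3 stood at 0.45 (adjusted p = 0.132) and 0.36 (0.212), and mt-Co2 at 0.22 (0.269) and 0.13 (0.531), which leaves mt-Cytb, mt-Nd5 and mt-Nd6 as the members that passed. The mt-Co2 call in heterozygotes was also lost without wild-type library 2 (adjusted p = 0.0851), wild-type library 3 (0.0679) or heterozygous library 1 (0.086).

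**Figure D2:**
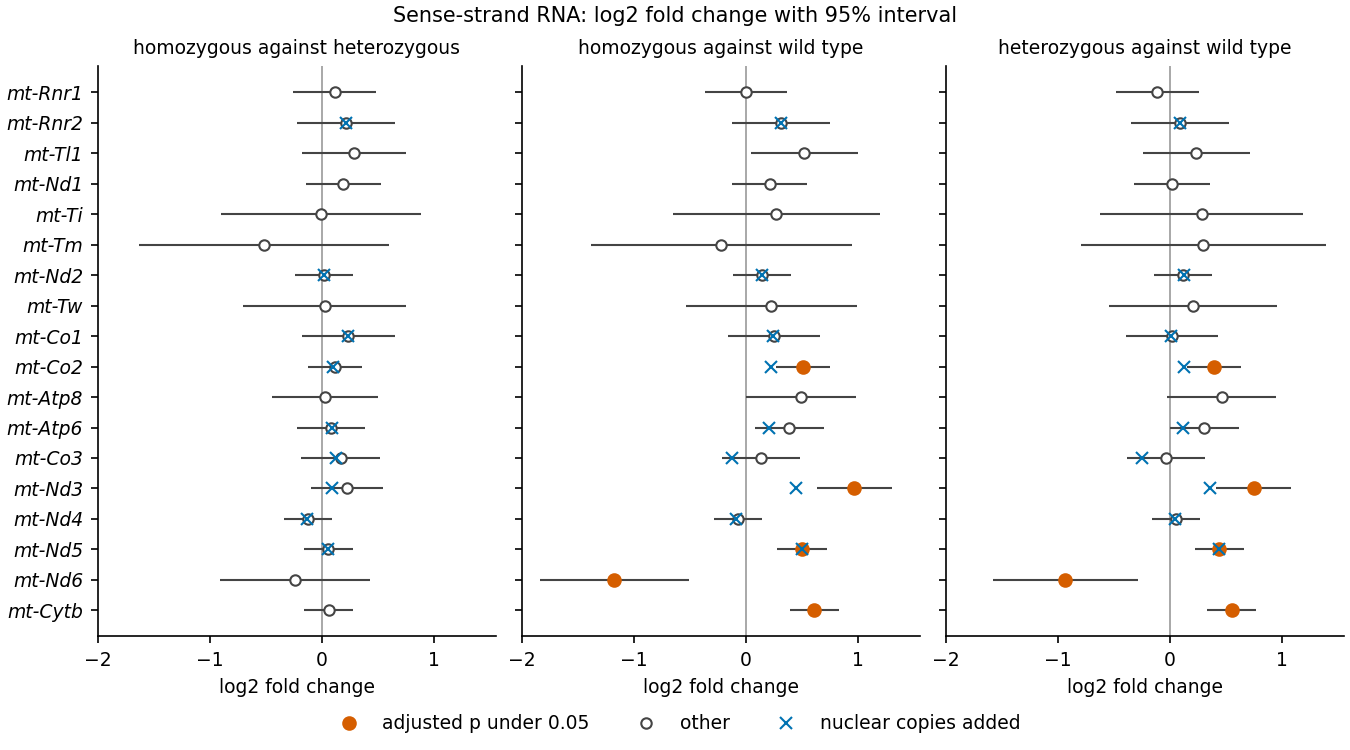
Log2 fold change (x axis) of the 18 mitochondrial genes tested on the sense strand, in genome order, for the 3 comparisons, with 95% intervals from the edgeR fit. Filled orange points passed at an adjusted p under 0.05, and blue crosses are the same values with nuclear copies added, which move mt-Nd3 from 0.97 to 0.45 and mt-Co2 from 0.51 to 0.22 in homozygotes against wild type.

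The remaining subunits of cytochrome c oxidase and ATP synthase did not pass. mt-Co1, the catalytic subunit 1, stood at 6298, 3905 and 3461 CPM in wild type, 4804, 4201 and 4818 among heterozygotes and 5099, 6052 and 5119 in homozygotes (0.25 and 0.02). mt-Co3 stood at 83.2, 56.3 and 51.8, then 72.5, 56.6 and 58.0, then 70.9, 75.0 and 64.3 CPM (0.13 and -0.03). In both, wild-type library 1 was the highest library of all 9 and wild-type library 3 the lowest. mt-Atp6 stood at 18.0, 13.8 and 13.8 CPM in wild type, 21.1, 15.7 and 19.6 among heterozygotes and 17.9, 21.4 and 20.5 in homozygotes (0.39, adjusted p = 0.071, and 0.31, 0.134). mt-Atp8 stood at 3.42, 2.51 and 2.05, then 3.82, 3.01 and 4.29, then 3.82, 4.44 and 3.04 CPM (0.49, adjusted p = 0.141, and 0.46, 0.149). Without wild-type library 1, mt-Co1 (0.56, adjusted p = 0.0151) and mt-Atp6 (0.53, 0.0312) passed in homozygotes. mt-Atp6 also passed there in DESeq2 (adjusted p = 0.0481), without scaling (0.0312) and with only the groups compared (0.0451), but stood at 0.21 (0.361) with its nuclear copy added.

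mt-Nd6 was lower outside wild type. mt-Nd6 (chrM:13552-14070) encodes a complex I subunit and is the only mRNA read from the minus strand. It held 542, 350 and 200 counts in wild type, 470, 150 and 126 among heterozygotes and 176, 152 and 147 in homozygotes, or 16.7, 12.9 and 9.09, 10.7, 5.01 and 4.33, and 6.23, 5.31 and 5.66 CPM. All homozygous libraries lay below all wild-type ones, while heterozygous library 1 lay within the wild-type range. It fell by 1.18 on the log2 scale in homozygotes (SE 0.31, edgeR adjusted p = 0.0198) and by 0.93 in heterozygotes (SE 0.30, adjusted p = 0.0402). In homozygotes the call was lost without any 1 of wild-type library 1 (-0.94, adjusted p = 0.0784), homozygous library 2 (0.0739) and homozygous library 3 (0.0674). In heterozygotes it was lost without wild-type library 1 or 2, heterozygous library 2 or 3 or any homozygous library (adjusted p from 0.0516 to 0.167), without scaling (0.0727) and with only the groups compared (0.0763). Summing both strands, which adds the far more abundant plus-strand RNA across the gene, left -0.16 (adjusted p = 0.4) and -0.07 (0.747).

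Most RNA over mt-Nd6 came from the plus strand, as the opposite-strand counts show. For a minus-strand gene those counts are plus-strand RNA that overlaps it in full or in part, and for a plus-strand gene they are minus-strand RNA. mt-Nd5 reaches 14 bases into mt-Nd6 and mt-Co1 reaches 3 bases into mt-Ts1, so ends of these mRNAs may be among the counts. RNA across a gene is meant here in this wide sense. Plus-strand RNA made up 85.4% of the fragments over mt-Nd6, at 577, 455 and 414 CPM of the opposite-strand libraries in wild type, 563, 473 and 554 among heterozygotes and 500, 524 and 542 in homozygotes. That level did not pass in homozygotes (log2 fold change 0.12, 95% interval -0.18 to 0.41) or in heterozygotes (0.14, -0.16 to 0.43).

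Of the neighbours of mt-Nd6, minus-strand RNA over mt-Nd5 was lower in homozygotes. Over mt-Nd5 it stood at 189, 142 and 120 CPM in wild type, 138, 116 and 107 among heterozygotes and 97.6, 98.0 and 106 in homozygotes, with homozygotes below wild type (-0.59, adjusted p = 0.0396), while heterozygotes did not pass (-0.32, 0.236). Over mt-Cytb it stood at 37.8, 31.8 and 24.7, then 19.3, 17.0 and 26.1, then 20.8, 27.6 and 32.6 CPM, with groups that overlap, and did not pass (-0.23, adjusted p = 0.574, and -0.61, 0.105). The mt-Nd5 call was lost without scaling (adjusted p = 0.064), and without wild-type library 1 or 2, heterozygous library 2 or any homozygous library (0.0526 to 0.172). To take depth out, minus-strand fragments were set against all fragments over mt-Nd5, mt-Nd6, mt-Te and mt-Cytb. They made up 4.52, 4.15 and 3.39% in wild type, 2.28, 1.83 and 1.67% among heterozygotes and 1.66, 1.49 and 1.72% in homozygotes. All 3 wild-type libraries lay above the other 6. The means were 4.02 ± 0.58%, 1.93 ± 0.32% and 1.62 ± 0.12% (SD, n = 3). An exact permutation test gave p = 0.1 against wild type for both genotypes, the smallest it allows, and 0.2 between them. After adjustment over 15 such tests the 0.1 became 0.214. The minus-strand RNA itself stood at 31.4 ± 7.72 CPM of the sense-strand libraries in wild type, 20.6 ± 4.89 among heterozygotes, which overlapped wild type (exact permutation p = 0.2), and 17.8 ± 1.24 in homozygotes, which did not (p = 0.1). The stretch was chosen after the values were seen, and its genes include members that passed above. The share also falls with the higher plus-strand mt-Nd5 and mt-Cytb, and with the lower mt-Nd6. It is therefore not separate support for those calls.

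**Figure D3:**
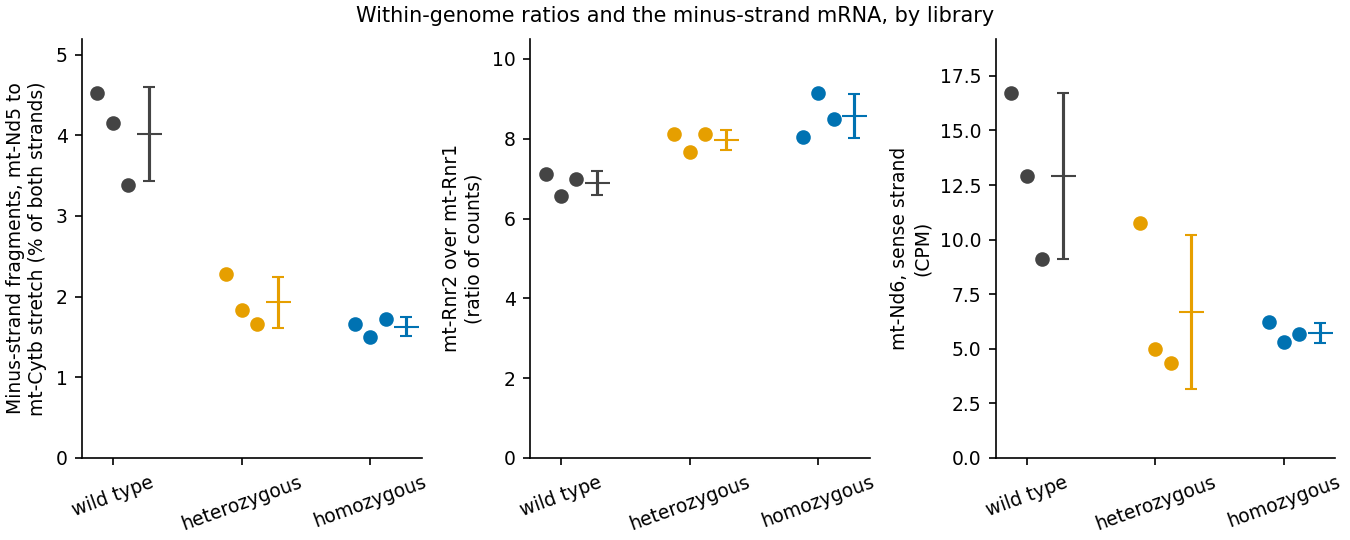
Per library, from left to right, the share of minus-strand fragments over the mt-Nd5 to mt-Cytb stretch (%), the ratio of mt-Rnr2 to mt-Rnr1 counts, and the sense-strand level of mt-Nd6 (CPM), with the mean and SD of 3 libraries beside each group. Wild type lies above the other genotypes in the first panel and below them in the second, and in the third only heterozygous library 1 reaches the wild-type range.

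Opposite-strand RNA was rare over the well-covered rRNA and mRNA genes of the plus strand. Of all fragments over a gene, it made up 0.026% for mt-Co1, 0.034% for mt-Rnr1, 0.056% for mt-Rnr2, 0.17% for mt-Nd1, 0.443% for mt-Cytb, 0.568% for mt-Nd2, 0.897% for mt-Nd4 and 3.53% for mt-Nd5. Fragments with a wrong strand from library preparation cannot be told apart from true minus-strand RNA, and the lowest of these shares bounds how common they were over that gene. Several plus-strand tRNA genes with few fragments in all were the exception: of the fragments over mt-Tv, mt-Th, mt-Ts2 and mt-Tl2, 66.7, 96.4, 98.6 and 100% came from the minus strand, from 20, 27, 71 and 28 opposite-strand counts over the 9 libraries. Over the 8 minus-strand tRNA genes the picture was reversed, with 98.0 to 99.9% of the fragments coming from plus-strand RNA that overlaps them in full or in part.

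Plus-strand RNA over several of these tRNA genes was higher outside wild type. Of 17 members tested on the opposite strand, 5 were higher and 2 lower in homozygotes against wild type, where 9.7% of all 12303 features passed (4.19% higher and 5.51% lower). In heterozygotes against wild type 3 were higher and 1 lower, where 10.2% passed (4.12% higher and 6.04% lower). These backgrounds also moved with single libraries. The 1193 features in homozygotes became 484, 653 or 713 without wild-type library 1, 2 or 3, and 338 or 385 when homozygous library 2 or 3 was left out. The 1250 in heterozygotes became 439, 819 or 830 without wild-type library 1, 2 or 3, and 521 without heterozygous library 3. Homozygotes and heterozygotes differed in 0 members in edgeR and 0 in DESeq2, with 2 members at an unadjusted p under 0.05 (mt-Rnr2 and mt-Tc, 0.64 and 0.44 on the log2 scale), and 0.0% of all features passed. The tRNA genes over which opposite-strand RNA changed are printed as their own minus-strand sequence, with the anticodon in capitals.

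mt-Ta, tRNA of alanine (chrM:5018-5086, minus strand): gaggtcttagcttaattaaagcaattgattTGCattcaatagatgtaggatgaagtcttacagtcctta
mt-Tc, tRNA of cysteine (chrM:5192-5257, minus strand): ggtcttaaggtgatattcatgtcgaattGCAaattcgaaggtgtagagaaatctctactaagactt
mt-Ty, tRNA of tyrosine (chrM:5260-5326, minus strand): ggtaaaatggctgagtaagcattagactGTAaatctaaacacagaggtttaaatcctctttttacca
mt-Te, tRNA of glutamate (chrM:14071-14139, minus strand): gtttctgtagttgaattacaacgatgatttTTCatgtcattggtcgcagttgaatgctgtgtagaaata
mt-Tp, tRNA of proline (chrM:15356-15422, minus strand): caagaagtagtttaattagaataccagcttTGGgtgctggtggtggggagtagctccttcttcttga

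The first 3 belong to a cluster of minus-strand tRNA genes between mt-Nd2 and mt-Co1. Opposite-strand RNA over mt-Ta held 97, 80 and 77 counts in wild type, 196, 179 and 176 among heterozygotes and 149, 196 and 137 in homozygotes, or 29.8, 28.6 and 34.0, 45.6, 60.7 and 61.1, and 54.3, 77.1 and 54.4 CPM. All wild-type libraries lay lowest. The log2 fold change was 1.01 in homozygotes (adjusted p = 0.00599) and 0.86 in heterozygotes (0.0131).

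Over mt-Tc it stood at 39.4, 33.2 and 35.3 CPM in wild type, 50.5, 54.0 and 55.9 among heterozygotes and 79.4, 76.8 and 60.4 in homozygotes (1.00, adjusted p = 0.00221, and 0.57, 0.0428). The 3 genotypes did not overlap. Over mt-Ty it stood at 26.8, 18.6 and 18.6, then 28.2, 36.99 and 35.8, then 37.1, 51.2 and 38.1 CPM (0.97, adjusted p = 0.0125, and 0.64, 0.0703). Over the cluster's mt-Tn it held 5 to 18 counts per library and did not pass (-0.25, 95% interval -1.18 to 0.67, in homozygotes).

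RNA across mt-Te, between mt-Nd6 and mt-Cytb, was also higher, at 23.7, 26.8 and 30.5 CPM in wild type, 37.7, 38.7 and 49.7 among heterozygotes and 40.4, 52.0 and 47.7 in homozygotes (0.80, adjusted p = 0.0182, and 0.64, 0.0426). Across mt-Tp, which follows mt-Cytb and mt-Tt at the end of the coding part, it was lower, at 78.7, 44.7 and 24.7, then 31.9, 19.3 and 16.0, then 23.7, 20.1 and 15.1 CPM (-1.34, adjusted p = 0.0241, and -1.13, 0.041). Wild-type library 1 lay highest over mt-Tp. Across mt-Ts1 (107, 72.2 and 57.4, then 87.0, 54.0 and 53.8, then 73.2, 70.9 and 65.9 CPM) and mt-Tq (31.1, 14.3 and 11.5, then 13.7, 22.1 and 19.5, then 11.3, 20.9 and 16.7 CPM) the groups overlapped and nothing passed.

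Minus-strand RNA over mt-Rnr2 rose in homozygotes. It stood at 671, 460 and 491 CPM in wild type, 677, 684 and 691 among heterozygotes and 846, 1435 and 929 in homozygotes (0.98, SE 0.18, adjusted p = 0.00458, and 0.34, adjusted p = 0.254, in heterozygotes). Homozygous library 2 was the highest. Its sense-strand level of mt-Rnr2 was also the highest of the 9 libraries, and the part of strand errors in library preparation was not tested. Minus-strand RNA over mt-Rnr1 stood at 43.4, 55.4 and 57.0, then 60.5, 62.4 and 45.5, then 51.0, 104 and 58.8 CPM and did not pass. Over mt-Nd1 (9.47 to 20.5 CPM over the 9 libraries), mt-Nd2 (4.73 to 13.8), mt-Co1 (6.92 to 18.3) and mt-Nd4 (10.4 to 20.7) it was low and did not pass either. The other 20 genes were not tested on this strand: 6 tRNA genes were at 0 in all libraries, mt-Ts2 held 71 counts in all, and the rest held 1 to 28.

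The opposite-strand calls of mt-Rnr2, mt-Ta and mt-Tc in homozygotes held in each of 17 alternative settings. That of mt-Ty was lost without wild-type library 2 (adjusted p = 0.0548) or homozygous library 2 (0.0783). That of mt-Te was lost when a library of either group was left out (wild-type 1 or 2, homozygous 2 or 3; adjusted p 0.058 to 0.0915), and that of mt-Tp without wild-type library 1 (-0.83, 0.148), homozygous library 2 (0.0969) or homozygous library 3 (0.101). In heterozygotes, 0 members passed without wild-type library 1, where mt-Ta stood at 0.83 (0.0509). The calls of mt-Tc and mt-Te there were lost without any 1 wild-type library, heterozygous library 2 or 3 or homozygous library 2, for mt-Tc also without homozygous library 1 and for mt-Te without homozygous library 3 (0.0525 to 0.185). That of mt-Tp was lost without wild-type library 1 or 2, heterozygous library 2 or 3 or homozygous library 2 (0.0629 to 0.295) without scaling (0.0673) and with only the groups compared (0.0733). The calls of mt-Tc and mt-Te were also lost at a mean of at least 1 CPM (0.059 and 0.0546), with only the groups compared (0.0582 and 0.064) and with sense-strand totals (0.0589 and 0.0595), and that of mt-Tc without the low-count filter (0.0703).

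**Figure D4:**
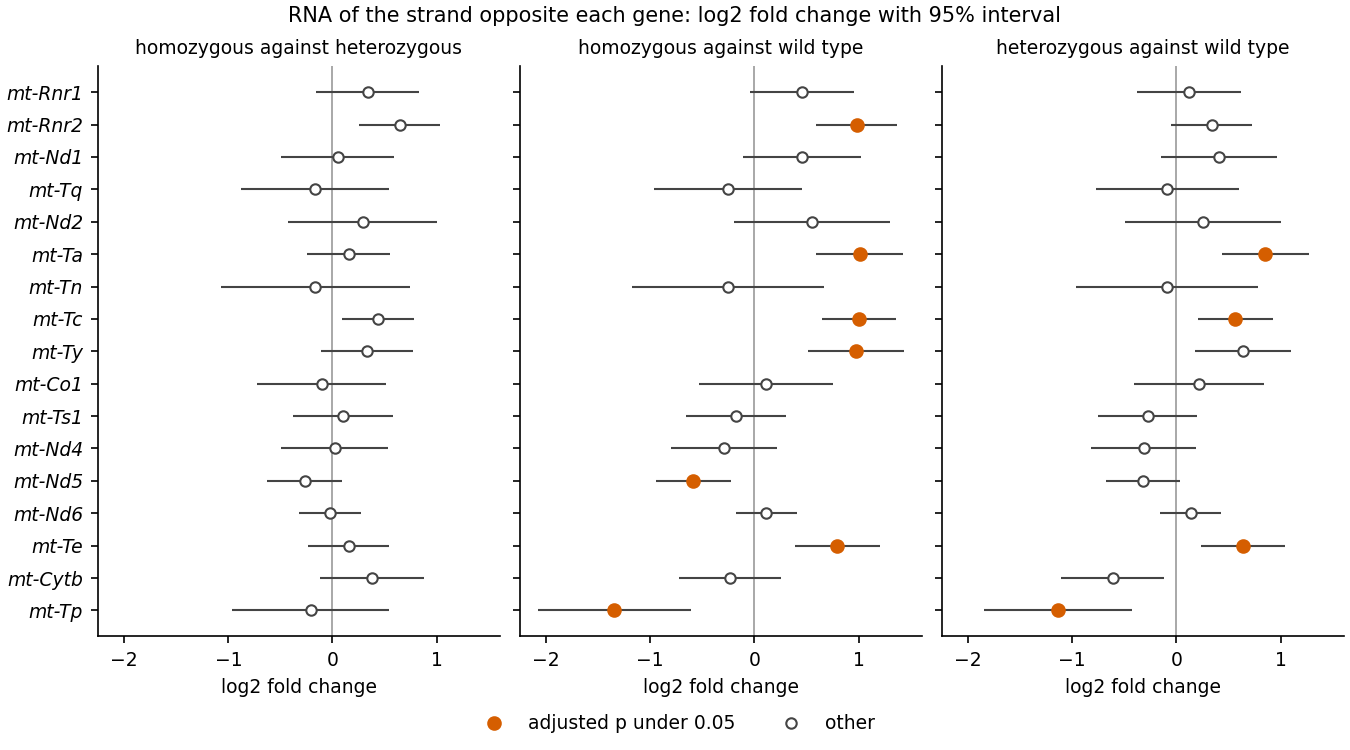
Log2 fold change (x axis) of RNA on the strand opposite each of the 17 mitochondrial genes tested there, in genome order, for the 3 comparisons, with 95% intervals from the edgeR fit. Filled orange points passed at an adjusted p under 0.05: against wild type, homozygotes were higher over mt-Rnr2, mt-Ta, mt-Tc, mt-Ty and mt-Te and lower over mt-Nd5 and mt-Tp.

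On the sense strand, tRNA genes were near the limit of detection. Of 22 tRNA genes 4 had no count in any of the 9 libraries and 17 held under 50 counts in all, and a fragment that also touches a neighbouring gene was not counted. Of the genes without a count, mt-Td, mt-Tk and mt-Tr lie between genes with copies on chromosome 1, while mt-Tl2 does not. Fragments that map to more than 1 place were not counted, and their part in these low counts was not tested. mt-Tl1, tRNA of leucine, sits between mt-Rnr2 and mt-Nd1 and led with 99, 45 and 43 counts in wild type, 113, 74 and 84 among heterozygotes and 86, 94 and 87 in homozygotes. Its CPM in wild type overlapped with both other genotypes. Its log2 fold change in homozygotes against wild type was 0.52 (adjusted p = 0.11), or 0.84 (0.0212) without wild-type library 1. mt-Ti held 8 to 25 counts, mt-Tm 5 to 35, mt-Tw 9 to 27 and mt-Tt 0 to 15 per library. The first 3 of these were tested and did not pass.

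Small RNA gave the opposite picture, with tRNAs in front. Mitochondrial genes took 1.41, 0.17 and 0.23% of small RNA counts among heterozygotes and 1.20, 1.01 and 1.47% in homozygotes. tRNAs made up 71.5, 61.6 and 68.8% of these mitochondrial counts among heterozygotes and 82.2, 80.2 and 79.4% in homozygotes, and mRNAs took 0.003 to 0.013% of all small RNA counts. The sequences of the 3 most abundant are printed with the anticodon in capitals, because they held the most small RNA counts of the 22.

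mt-Ts2, tRNA of serine (chrM:11613-11671, plus strand): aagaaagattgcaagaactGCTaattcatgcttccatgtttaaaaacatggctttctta
mt-Tv, tRNA of valine (chrM:1025-1093, plus strand): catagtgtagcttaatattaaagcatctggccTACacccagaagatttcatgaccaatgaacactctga
mt-Th, tRNA of histidine (chrM:11546-11612, plus strand): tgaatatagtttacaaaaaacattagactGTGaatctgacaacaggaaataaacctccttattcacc

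mt-Ts2 is the shortest of the tRNA genes, at 59 bases, and belongs to a kind of serine tRNA that lacks the D arm. It held 9535, 189 and 442 counts among heterozygotes and 8880, 6391 and 8721 in homozygotes, or 5522, 187 and 354 against 5904, 5279 and 8219 CPM. Heterozygous library 1 lay among the homozygous ones and the other 2 far below. mt-Ts2 made up 36.2, 11.7 and 16.4% of mitochondrial small RNA among heterozygotes and 51.0, 49.8 and 52.7% in homozygotes, which do not overlap. Such shares are parts of a common total, so they depend on each other. Those of mt-Rnr1, mt-Rnr2, mt-Tm and mt-Tg, among others, did not overlap either and were lower in homozygotes. For mt-Rnr2 they were 23.3, 31.1 and 24.6% among heterozygotes and 14.2, 15.9 and 16.8% in homozygotes. Counts cover whole genes, so they do not show which part of a tRNA the reads come from, or whether their 3′ end is 2′-O-methylated.

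mt-Tv lies between the 2 rRNA genes and stood at 2450, 263 and 340 CPM among heterozygotes and 1869, 1192 and 1643 in homozygotes. mt-Th, next to mt-Ts2, stood at 1556, 204 and 311 against 779, 1118 and 1505 CPM. The rRNAs followed the same split, with mt-Rnr2 at 3554, 499 and 533 against 1639, 1685 and 2616 CPM and mt-Rnr1 at 655, 93.1 and 102 against 332, 349 and 468 CPM. In all 4 genes heterozygous library 1 was the highest of the 6 libraries and heterozygous libraries 2 and 3 the lowest.

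Less abundant tRNAs showed the same split of libraries, with mt-Tg as the clearest exception. mt-Tq stood at 338, 15.8 and 36.8 CPM among heterozygotes and 281, 311 and 212 in homozygotes. mt-Tm stood at 309, 73.3 and 80.1 against 210, 99.9 and 185, and mt-Ta at 164, 6.93 and 6.41 against 112, 148 and 145 CPM. In each, heterozygous libraries 2 and 3 were lowest. In contrast mt-Tg, tRNA of glycine, stood at 270, 179 and 256 CPM among heterozygotes and 116, 155 and 225 in homozygotes, where heterozygous libraries 2 and 3 were not low.

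The rest of the tRNAs with at least 50 counts in all were lower still. mt-Tl1 stood at 67.2, 27.7 and 32.8 against 55.8, 49.6 and 66.9 CPM, mt-Tl2 at 57.9, 5.94 and 18.4 against 76.5, 41.3 and 65.0, and mt-Ts1 at 42.9, 8.91 and 8.81 against 29.9, 24.0 and 39.6. mt-Tc stood at 35.9, 5.94 and 20.02 against 26.6, 16.5 and 19.8 CPM, and mt-Ti at 31.3, 1.98 and 6.41 against 22.6, 28.1 and 32.0. mt-Tp and mt-Tt ranged from 4.805 to 20.8 and from 2.97 to 16.0 CPM over the 6 libraries. In 6 of these 7 genes heterozygous libraries 2 and 3 were the lowest, and in mt-Tc only heterozygous library 2 stood clearly below the others. Among mRNAs, mt-Co1 ranged from 5.61 to 41.1 CPM, mt-Nd2 from 1.98 to 28.4, mt-Cytb from 3.96 to 19.1, mt-Nd5 from 2.97 to 22.6 and mt-Nd1 from 1.98 to 17.0, and the other 8 mRNAs held 6 to 37 counts in all. Of the remaining tRNAs, mt-Tn had no small RNA count, and 7 held 1 to 26 counts in all.

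**Figure D5:**
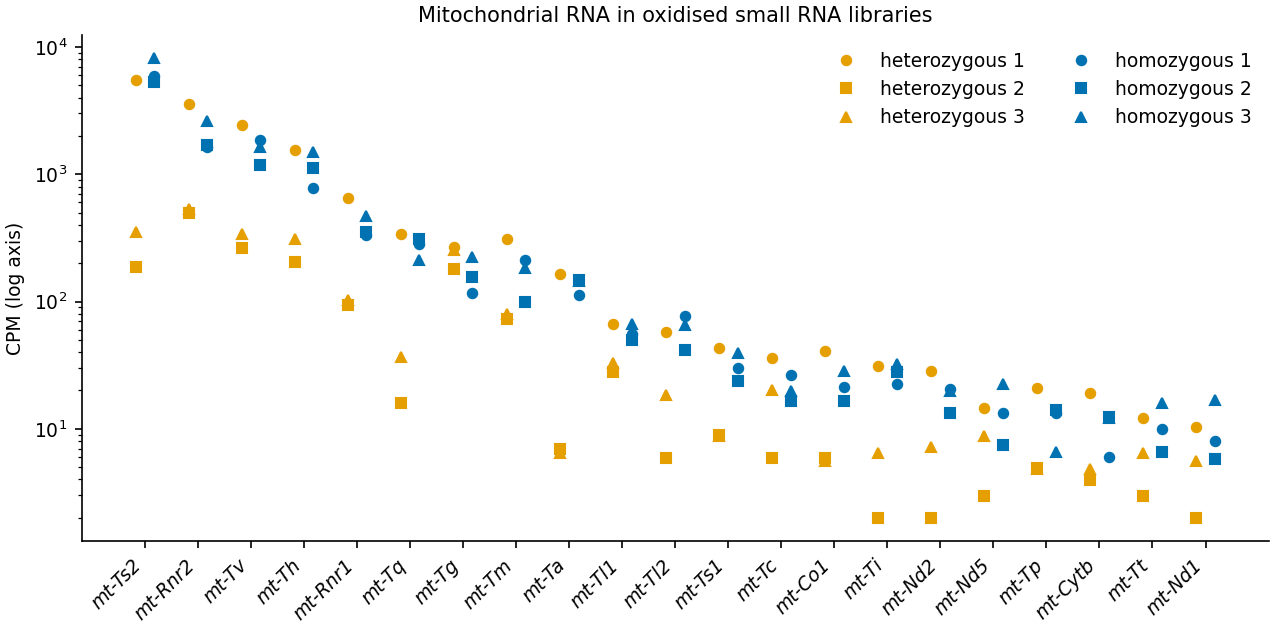
CPM (log axis) in the 6 small RNA libraries for the 21 mitochondrial genes with at least 50 counts in all, ordered by total count, with colour for genotype and marker shape for the replicate number. Squares and triangles in orange, heterozygous libraries 2 and 3, lie below the other 4 libraries for most genes, and mt-Tg is an exception.

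No mitochondrial gene passed between homozygotes and heterozygotes in small RNA. Of 21 members tested 0 passed in edgeR and 0 in DESeq2, with 0 at an unadjusted p under 0.05, and 1 of all 3581 features passed (0.0279%). The median log2 fold change of the members was 0.46, against -0.01 over all features, and mt-Ts2 stood at 1.68 (95% interval -0.72 to 4.07, edgeR adjusted p = 0.631). The intervals are wide, and the heterozygous libraries differed more from each other than the homozygous ones. Without heterozygous library 1, 14 of the 21 passed, all higher in homozygotes, for example mt-Ts2 at 4.57 (adjusted p = 1.01e-18) and mt-Ta at 4.31 (8.36e-14). In that fit 617 of 3835 features passed over all genes, against 1 of 3581 with all 6 libraries. Its heterozygous libraries 2 and 3 lay far from heterozygous library 1. These calls are therefore given as values and not as a test of the genotype. Without heterozygous libraries 2 and 3, mt-Rnr2 stood at -0.83 (adjusted p = 0.0265). That fit has 1 heterozygous library, takes its spread from the homozygotes alone and assumes that the lone library varies like them, so it is given as a value and not as a test of the genotype. snoRNAs, small nucleolar RNAs that guide the modification of other RNAs, took 5.26, 0.694 and 0.840% of small RNA counts among heterozygotes and 2.74, 2.94 and 3.47% in homozygotes, the same split of libraries, while miRNAs took 3.13, 3.28 and 3.49% and 3.21, 3.38 and 3.45%. Whether the oxidation step or RNA quality differed between these libraries was not tested.

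Nuclear genes of the same complexes were examined beside the mitochondrial ones, from lists that were chosen with earlier results of these data known. Between homozygotes and heterozygotes 0 of them passed in edgeR. Against wild type, their counts stand beside the shares over all features given above, 9.68% higher and 11.1% lower in homozygotes and 11.1% and 12.9% in heterozygotes, and several lists lie near them. In complex I, 6 of 35 tested were lower and 2 higher in homozygotes (median log2 fold change -0.20) and 1 higher and 10 lower in heterozygotes (-0.24). The lowest p values in homozygotes belonged to Ndufa12 (-1.36, adjusted p = 0.00459), Ndufa7 (-0.44) and Ndufs3 (-0.42). Complex II, which has no mitochondrially encoded subunit, had 0 of 4 passing (-0.08 and -0.07).

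In complex III with cytochrome c, 2 of 11 passed as higher and 2 as lower in homozygotes (median -0.11), against 1 and 2 in heterozygotes (-0.14). The core protein gene Uqcrc1 fell by 0.55 and Uqcr10 by 0.51 on the log2 scale, and Cycs, the somatic cytochrome c, rose (0.44). In complex IV, 2 of 15 were higher and 3 lower (-0.20), against 3 and 5 in heterozygotes (-0.25), with Ndufa4 higher (0.66) and Cox6a1 (-0.69) and Cox8a (-0.88) lower. In the ATP synthase, 0 of 16 were higher and 3 lower (-0.14), against 0 and 4 (-0.17), namely Atp5e (-0.40), Atp5d (-0.75) and Atp5g1 (-0.47) in homozygotes. Across 20 settings the medians of complexes I, III and IV and of the ATP synthase stayed below 0 in both comparisons. That of complex II ranged from -0.09 to 0.03 in heterozygotes. The counts of lower genes ranged from 2 to 8 for complex I in homozygotes and from 3 to 13 in heterozygotes.

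Genes for handling the mitochondrial genome and its RNA were read against the same shares, 9.68% higher and 11.1% lower over all features in homozygotes. Of 17 genes of mitochondrial transcription, replication and the nucleoid, 4 passed as higher and 1 as lower in homozygotes (median 0.25), against 3 and 1 in heterozygotes (0.19). The single-stranded DNA-binding protein gene Ssbp1 (0.58), the primase-polymerase gene Primpol (0.52) and the exonuclease gene Mgme1 (0.53) were higher, and Polrmt, which encodes the mitochondrial RNA polymerase, was lower (-0.48, adjusted p = 0.0451; named after its value was seen). Of 29 genes of mitochondrial RNA processing, stability and decay, 6 passed as higher and 1 as lower in homozygotes (median 0.05), against 4 and 3 in heterozygotes (-0.02). Across 20 settings the higher genes in homozygotes numbered 2 to 7 in this list and 1 to 5 in the transcription list. Pnpt1, which encodes polynucleotide phosphorylase, a subunit of the mitochondrial RNA-degrading complex, rose (0.53, adjusted p = 0.00546), as did the translation factor gene Ptcd3 (0.53), and Fastk fell by 0.63. Of 8 genes of the piRNA pathway 1 passed, Asz1 (0.38, adjusted p = 0.0352), a germ cell protein of the outer mitochondrial membrane. The list also holds Pld6 (-0.20) and Tdrkh (0.23), whose proteins are found at that membrane, and Mov10l1, Piwil1, Piwil2, Henmt1 and Pnldc1. Early meiotic and elongating spermatid markers moved in the same comparisons, as given above. Summed spermatogonial markers stood at 362 to 382 CPM in wild type, 436 to 487 among heterozygotes and 438 to 520 in homozygotes. By gene they did not move together. Of 7 tested, 1 passed as higher and 1 as lower in each comparison with wild type (median 0.06 in homozygotes and 0.07 in heterozygotes). Summed pachytene spermatocyte markers stood at 3997 to 4125, 3641 to 3814 and 3640 to 3884 CPM. Of 7 tested, 1 passed as higher and 1 as lower in homozygotes (median -0.15), against 0 and 2 in heterozygotes (-0.15). Round spermatid markers overlapped, at 910 to 1115, 848 to 1018 and 947 to 1029 CPM. The part of these marker differences in the values above was not tested.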

How the data were processed

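Total RNA and small RNA of testis were analysed from raw counts per feature as the authors deposited them, without normalization. Per the file headers, featureCounts 1.6.2 counted fragments of total RNA over whole genes, with 1 file per strand setting, and featureCounts 1.6.1 counted small RNA over exons on the sense strand. The sense files are those that match the stranded kit. The submitters' processing notes also name HISAT2 2.1.0, Bowtie2 2.2.5, Salmon 0.11.3, cutadapt 1.18, SAMtools 1.9, FastQC 0.11.8, R 3.5.1 and DESeq2 1.20.0. The same notes list mm10 and mm9 and give no role to either. The files' mitochondrial coordinates match GENCODE M21 on mm10. The commands in the file headers do not ask for multi-mapped fragments.

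Counts were filtered with filterByExpr, scaled by TMM and tested over all features with edgeR 4.0.16 (glmQLFit, glmQLFTest) in R 4.3.3, with 3 libraries per group. All libraries of an assay entered 1 fit. Passing means a p under 0.05 after Benjamini-Hochberg adjustment over all features, taken from edgeR except where DESeq2 1.42.0 is named. Levels are CPM, with errors as SD over 3 libraries, and intervals are 95% from the fit. Depth sets the precision: at few counts per library, as for most tRNAs, differences were not detectable. Single values over libraries were compared with exact permutation tests.

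The members and the lists were chosen with earlier results of these data known. Values are given for every member tested or, for tRNAs, with at least 50 counts, and for up to 3 genes per list by p in homozygotes against wild type. Alternatives were DESeq2, other scaling and filters, totals outside the mitochondrial chromosome, only the groups compared, both strands summed, each library left out and a replicate block for small RNA. Added after the data were seen were nuclear copies, totals without the rRNAs, and small RNA without heterozygous libraries 2 and 3. Equal replicate numbers were not treated as pairs.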

Additional observations from a re-analysis of the deposited data

How the results depend on the processing

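Between homozygotes and heterozygotes the sense-strand count of members that passed was 0 in each of 10 other settings and in the 9 fits with 1 library left out, and on the opposite strand it was 0 except for 1 (mt-Rnr2) without the low-count filter. Against wild type, the sense-strand count of 5 became 9 in both comparisons with both strands summed, which adds plus-strand RNA across minus-strand genes, and 3 in both with nuclear copies added. With 1 library left out it ranged from 4 to 9 in homozygotes (9 without wild-type library 1) and from 3 to 4 in heterozygotes (3 without wild-type library 2). On the opposite strand the count of 7 in homozygotes ranged from 3 to 7 with 1 library left out, the lowest without homozygous library 2, with 4 without wild-type library 1, wild-type library 2 or homozygous library 3. The count of 4 in heterozygotes became 2 at a mean of at least 1 CPM, 1 with only the groups compared and 2 with sense-strand totals, and ranged from 0 to 5 with 1 library left out, with 0 without wild-type library 1. In small RNA the count of 0 became 4 without the low-count filter, 1 without heterozygous libraries 2 and 3, where mt-Rnr2 stood at -0.83 with 1 heterozygous library and the spread of the homozygotes alone, and 0 to 14 with 1 library left out, the 14 without heterozygous library 1. The replicate block left the count at 0, and deviations of libraries with equal numbers did not correlate above 0.1 (r = -0.15, 0.00 and -0.09), so the numbers are not taken as pairs. The cause of these changes was not tested. Without scaling the median of all opposite-strand features moved to 0.10 in homozygotes and 0.16 in heterozygotes against wild type. Where a member held few counts per library, as most tRNAs did on the sense strand, a difference was not detectable at this depth.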
